A study of Rattus norvegicus with 24 samples.

Results

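Interferon-stimulated genes were examined in kidney cortex and medulla of rats fed lithium and of rats fed a normal diet. A list of 37 such genes was used, and a transcript cluster of the array (the probes that report on 1 gene) was taken as a member where the platform annotation gave it a single symbol on the list. By this rule 34 of the 37 genes were found among 28894 clusters. Ddx58, which encodes the RNA sensor RIG-I, carried the array's name Rig1 and was added through that synonym and its gene ID, which made 35 members, each with 1 cluster. Xaf1 and Parp14 had no named cluster, and their expression is not analysed here, although their promoters are counted among the windows.

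Cells that meet a virus, or that sense misplaced nucleic acids, release interferons. These bind receptors on neighbouring cells, the receptor kinases JAK1 and TYK2 are switched on, and STAT2 and IRF9 act in the ISGF3 complex, which binds the interferon-stimulated response element (ISRE) before its target genes. Many products of those genes block viral RNA or protein, others raise antigen presentation, and some, such as USP18, shut the signal off. In the kidney they are known from viral and autoimmune disease and, at a lower level, from healthy tissue.

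The animals were 12 male Wistar rats. The 6 control rats had standard food and tap water for 6 months. The 6 lithium rats had food with 40 mmol/kg lithium for 7 days and 60 mmol/kg for the rest of the 6 months, with a salt block, so that lithium and access to the block cannot be told apart. Portions of cortex and medulla of each animal gave 24 arrays.

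The deposited values were on a log2 scale. Medians over all clusters were 5.75 to 5.83 for cortex arrays and 6.12 to 6.22 for medulla arrays, so every array was centred on its median before the tissues were compared. Proximal tubule markers followed the tissue labels: 9 of 10 were called lower in control medulla, beside 21.9% of all clusters tested. Slc5a12 led them with a log2 difference of -4.09. Of 10 loop and collecting duct genes 5 were called higher, near the 41.3% of all clusters. The urea transporter gene Slc14a2 led these at 4.11. The scan dates, whose effect the study had removed, are not given, and the arrays that shared one were found from the values: 3 scan groups in medulla (A, B and C) and 4 in cortex. Lithium animal 17 was alone in its cortex scan group. Its cortex array held the mean of the other lithium cortex arrays to within 6.67e-05. It was left out of the group values, which left n = 5 in lithium cortex. In fits with scan groups it had no bearing on the lithium difference, being alone in its group. It was still counted by the filter below and in the lithium fits of cortex without scan groups, the methods' t-test included. A log2 value of 6 on at least 4 arrays was required of a tested cluster, which is a filter on low values and not a measure of background. It was passed by 22 members in cortex, by 33 in medulla and by 33 over the control arrays. Ifit1 and Oas1b did not pass in any comparison. The array does not separate near-identical genes well, and values of the Oas1, Oasl, Ifit, Ifitm, Mx and Gbp families may include signal from relatives.

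The sequences around the start sites were searched for short motifs of the interferon response. The reference table of promoters (RefSeq, build GRCr8, 250 bases before to 50 after the start) held windows of 27 of the 37 members. The ISRE core GAAANNGAAA, sought on both strands with overlapping matches allowed, was in the windows of 18 of these 27 members, or 66.7%, and of 1131 of 27457 genes in all, or 4.12%. The core of the gamma-activated site, TTCNNNGAA, was in 9 member windows, or 33.3%, against 9.39% of all genes, and 7 members held both cores. A match describes letters in the window. Excerpts of 9 members are printed, for each functional group the member with the largest tissue difference among those with an ISRE core in the 100 bases before the start. No excerpt came from the ISG15 group. Each ends at the last base before the start, except that of Psmb8, which runs 6 bases past it, and capitals mark the core on either strand.
Irf7: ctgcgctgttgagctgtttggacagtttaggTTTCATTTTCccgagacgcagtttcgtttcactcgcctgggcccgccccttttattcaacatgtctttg
Ifih1: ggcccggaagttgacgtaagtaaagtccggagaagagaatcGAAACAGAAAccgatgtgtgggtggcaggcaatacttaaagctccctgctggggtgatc
Ifit3: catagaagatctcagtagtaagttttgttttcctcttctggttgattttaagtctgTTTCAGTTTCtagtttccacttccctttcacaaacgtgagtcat
Oas1a: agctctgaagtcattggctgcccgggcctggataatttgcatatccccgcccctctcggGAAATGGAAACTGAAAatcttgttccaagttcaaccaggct
Gbp2: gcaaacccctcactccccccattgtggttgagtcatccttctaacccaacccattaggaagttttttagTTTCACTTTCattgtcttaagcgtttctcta
Ifitm2: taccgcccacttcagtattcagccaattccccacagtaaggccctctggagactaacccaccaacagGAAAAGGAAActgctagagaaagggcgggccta
Psmb8: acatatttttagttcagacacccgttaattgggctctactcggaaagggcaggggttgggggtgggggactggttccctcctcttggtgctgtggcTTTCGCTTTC
Isg20: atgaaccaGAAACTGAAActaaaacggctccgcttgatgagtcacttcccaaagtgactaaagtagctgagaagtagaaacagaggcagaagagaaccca
Ifi44: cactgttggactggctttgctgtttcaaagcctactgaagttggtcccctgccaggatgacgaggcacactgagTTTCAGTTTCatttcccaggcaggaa
The excerpts lie at chr1:205800024-205800123 on the minus strand (Irf7), chr3:67683969-67684068 minus (Ifih1), chr1:241527226-241527325 plus (Ifit3), chr12:41330366-41330465 plus (Oas1a), chr2:234005627-234005726 plus (Gbp2), chr1:205482349-205482448 minus (Ifitm2), chr20:4657026-4657131 minus (Psmb8), chr1:142239959-142240058 plus (Isg20) and chr2:243303841-243303940 minus (Ifi44). In 8 of the 9 a single core was present. Oas1a had 2 overlapping cores, which started 41 and 35 bases before the start. The core of Isg20 began farthest upstream, 92 bases before the start, and that of Psmb8 began 4 bases before it. Mx1, Oasl, Stat2, Irf1, Irf9, Herc6, Psmb9, Trim25 and Ifi35 had a window without the ISRE core.

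Control medulla was compared with control cortex first. Most members were higher in medulla. With no filter on low values, 30 of all 35 members passed an adjusted p of 0.05 in limma as higher and 1 as lower, while 25.5% of all clusters were higher and 37% lower. The median log2 difference of the 35 was 1.02. Behind the filter, 29 of 33 tested members were higher and 0 lower (without adjustment, 30 and 0). Over the 15579 clusters tested, 41.3% were called higher and 21.9% lower (without adjustment, 43.3% and 23.4%), and the median difference was 0.15. The filter favours members that are high in medulla: 15 of the 33 had fewer than 4 control cortex arrays at 6 or more and entered the test only with medulla arrays. Of these, Irf1 and Ifih1 had 3 such arrays, Psmb8 2, and Mx1, Gbp2, Rsad2 and Ifi35 1. Dhx58, Ifit3, Oas1a, Oas2, Isg15, Usp18, Ifi44 and Ifi44l had 0. The count over the 33 rests in part on them, with 13 of the 15 called. Of the other 18, which met the filter in cortex alone, 16 were called higher, with differences of 0.06 to 1.63 over the 18. In 28 of the 35 members every control animal had the higher value in its medulla, and 34 of 35 had a positive mean. In the lithium animals with both arrays these counts were 29 and 34. None of these within-animal counts was made over all clusters. Without centring, all 33 were higher and the median of all clusters was 0.51. Centring aligns only the medians, so tissue cannot be told apart from other differences in scanning or processing between cortex and medulla arrays. Bulk tissue was measured, in which fewer cells of a type and less RNA per cell cannot be told apart.

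**Figure D1:**
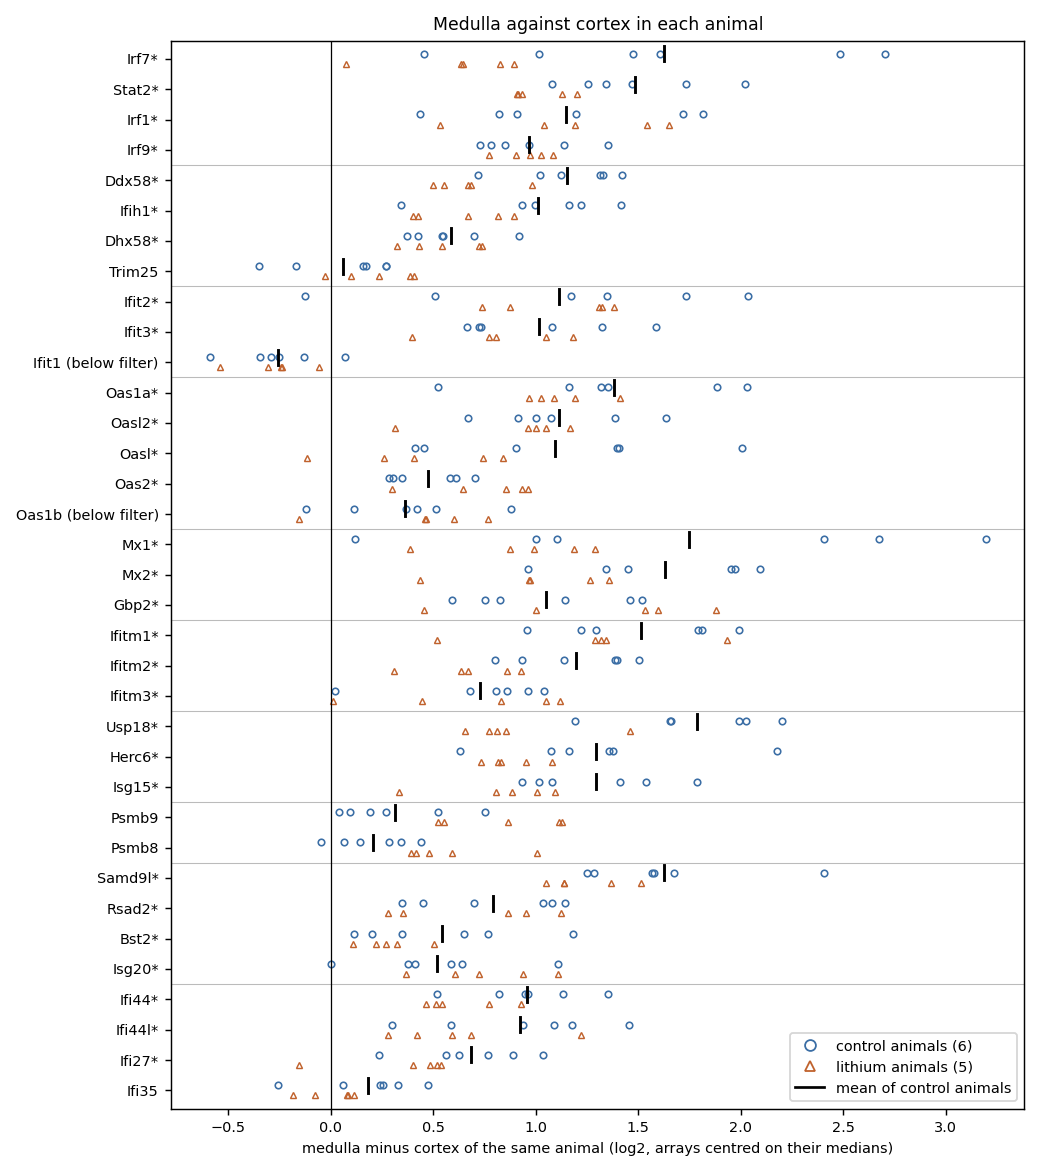
Medulla minus cortex of the same animal for the 35 members, as log2 differences between arrays centred on their medians, grouped by role. Circles are the 6 control animals, triangles the 5 lithium animals with both arrays and bars the control mean. Stars mark members called in control animals, and in 28 of the 35 members every circle lies right of 0. That count was not made over all clusters.

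All 4 transcription factors were higher in medulla. The deposited log2 value of Irf7, the master regulator of interferon alpha genes, was 6.33 to 6.73 (median 6.43) in control cortex and 7.48 to 9.43 (median 8.27) in control medulla. The groups did not overlap, and the medulla arrays were spread far more widely. With arrays centred the ranges were 0.53 to 0.96 and 1.36 to 3.29. How many of all clusters had no overlap between the tissues was not counted. The centred difference was 1.62 ± 0.27 (SE; adjusted p = 0.00017, limma). Stat2, the ISGF3 subunit particular to interferon signalling, ran from 6.46 to 6.99 in cortex and from 8.43 to 8.81 in medulla, a difference of 1.48 ± 0.11 (adjusted p = 8.02e-08, limma) with little spread in either tissue. Irf9, the subunit that holds DNA, differed by 0.97 ± 0.09 and Irf1, a factor strongly induced by interferon gamma, by 1.15 ± 0.17. Irf1 lay near the filter value in cortex, where 3 of 6 control arrays reached 6.

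Of the RNA sensors, 3 of 4 were higher. Ddx58, which recognises short RNA ends, was at 6.96 to 7.31 (median 7.04) in control cortex and at 8.35 to 8.82 (median 8.61) in control medulla. Its difference was 1.15 ± 0.10 (SE; adjusted p = 5.51e-07, limma). Ifih1, which encodes MDA5, the sensor of long RNA, differed by 1.01 ± 0.13 and Dhx58, which encodes their regulator LGP2, by 0.58 ± 0.09. Trim25, the ubiquitin ligase that helps RIG-I signal, stood apart from them. It ran from 8.18 to 8.46 in cortex and from 8.45 to 8.91 in medulla before centring, and its centred difference was 0.06 ± 0.09 (adjusted p = 0.6, limma), with 4 of 6 control animals higher in medulla. Quantile normalization over the 24 arrays turned the sign, to -0.10.

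Families that act on viral RNA followed. The OAS enzymes make the signal that switches on RNase L. Oas1a was at 5.04 to 5.89 (median 5.73) in control cortex, where no array reached 6, and at 6.77 to 7.65 (median 7.42) in control medulla. Its difference was 1.38 ± 0.16 (adjusted p = 7.75e-06, limma). Oasl and Oasl2, relatives of the OAS enzymes, differed by 1.10 ± 0.19 and 1.11 ± 0.13, and Oas2 by 0.47 ± 0.10. All 4 tested members of the family were thus called higher. Oas1b, which did not pass the filter, had a difference of 0.36 and was higher in medulla in 5 of 6 control animals.

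The IFIT proteins bind foreign RNA caps and ends. Ifit2 was at 5.84 to 6.90 in control cortex and 7.14 to 8.44 in control medulla, a difference of 1.11 ± 0.22 (adjusted p = 0.000582, limma). In 1 control animal it went the other way by -0.12. Ifit3 differed by 1.02 ± 0.14. Ifit1 was under 6 on all arrays, between 4.14 and 4.56. Its centred difference was -0.26 (adjusted p = 0.0177 in the limma fit without a filter), which made it the single member called lower in medulla. Before centring its mean was 4.30 in control cortex and 4.40 in control medulla, so the sign came with the centring of a low value.

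The dynamin-like GTPases, which trap viral particles, had differences among the largest of the list. Mx1 ranged from 5.25 to 6.06 (median 5.41) in control cortex and from 6.54 to 8.79 (median 7.70) in control medulla. No medulla value fell within the cortex range, although the medulla SD of 0.96 (n = 6) was the largest of the 35 members there. With arrays centred the ranges were -0.54 to 0.30 and 0.42 to 2.65. Overlap between the tissues was not counted over all clusters. The difference of Mx1 was 1.75 ± 0.36 (adjusted p = 0.000914, limma), and within animals it went from 0.12 to 3.19. Mx2 varied less from animal to animal, with 0.96 to 2.09 and a mean of 1.63 ± 0.23 (adjusted p = 3.46e-05, limma). Gbp2, a GTPase of the guanylate-binding family, differed by 1.05 ± 0.16.

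The IFITM proteins sit in membranes and hinder the fusion of viruses, and all 3 were higher. Ifitm1 was at 5.71 to 6.85 (median 6.36) in control cortex and at 7.99 to 8.40 (median 8.18) in control medulla, a difference of 1.51 ± 0.17 (adjusted p = 4.75e-06, limma). Ifitm2 differed by 1.19 ± 0.14 and Ifitm3 by 0.73 ± 0.14.

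ISG15 is a ubiquitin-like protein, HERC6 attaches it in rodents and USP18 removes it and also blocks the interferon receptor. Usp18 was at 4.31 to 5.64 (median 4.79) in control cortex, all under 6, and at 6.72 to 7.43 (median 7.15) in control medulla, a difference of 1.79 ± 0.20 (adjusted p = 5.48e-06, limma). It entered the test through the medulla arrays alone. Isg15 was also under 6 on every control cortex array, with 5.23 to 5.76, and at 6.98 to 7.76 in medulla. Isg15 and Herc6 had nearly the same difference, 1.29 ± 0.14 and 1.30 ± 0.17. All 3 were called higher.

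The immunoproteasome subunits, which cut peptides for MHC class I, were not called. Psmb8 was at 5.72 to 6.29 (median 5.89) in control cortex and at 6.41 to 6.68 (median 6.53) in control medulla, and centring left 0.20 ± 0.11 (adjusted p = 0.118, limma). Psmb9 had 0.31 ± 0.14 (adjusted p = 0.0653). Psmb9 was called with the animal as a replicate block, which gave 30 members.

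Among the other effectors, Samd9l, an inhibitor of translation, was at 6.59 to 7.59 (median 7.24) in control cortex and 8.99 to 9.36 (median 9.17) in control medulla, a difference of 1.63 ± 0.16 (adjusted p = 1.4e-06, limma). Rsad2, which encodes viperin, differed by 0.79, Bst2, which encodes the virus tether tetherin, by 0.54 and the RNA exonuclease gene Isg20 by 0.52, all 3 called. Of the IFI genes of less settled function Ifi44 differed by 0.96, Ifi44l by 0.92 and Ifi27 by 0.69. Ifi35 had 0.18 ± 0.10 (adjusted p = 0.12, limma) and was not called.

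The rest of the pathway was less uniform, and is set beside 41.3% of all clusters called higher and 21.9% lower. Of 13 genes listed as ligands, 6 had a cluster and 2 were tested, and the clusters of Ifnb1, Ifnk and Ifng were under 6 on all arrays. Both tested genes of that list were higher in control medulla. Il15, a cytokine that interferon induces and not itself an interferon, was higher by 0.87 ± 0.12 (adjusted p = 4.13e-05, limma). The interferon gene Ifna5, taken from the cluster with the highest mean of its 5, was higher by 0.25. Of 16 receptors, kinases and further factors, 11 were higher and 2 lower, with a median of 0.43. The interferon gamma receptor gene Ifngr1 was higher by 0.74, Stat3 by 0.71 and Jak1 by 0.66, while the factor gene Irf5, active in myeloid cells, fell by 0.70. Of 12 nucleic acid sensing genes 4 were higher, not above the share over all clusters, and 1 lower. Of 24 other interferon-responsive genes 18 were higher and 1 lower, led by Gbp5 at 2.22 ± 0.18 and the chemokine gene Cxcl10 at 2.17 ± 0.15. Of 19 MHC class I presentation genes 14 were higher and 0 lower, with a median of 0.48.

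Markers of other cells are set beside the same shares, 41.3% of all clusters higher and 21.9% lower. All 7 measured endothelial genes were higher in control medulla, by 0.54 to 1.78, and their mean level per centred array was 1.62 to 1.84 in control cortex and 2.65 to 3.29 in control medulla. Each of them reached 6 on at least some arrays. Of 10 tested macrophage and dendritic cell genes 2 were higher and 1 lower, and the mean deposited level of the 16 on the array overlapped between tissues, at 5.77 to 6.27 in control cortex and 5.97 to 6.79 in control medulla. Of 4 tested T, B and NK cell genes 1 was higher, and 8 of the 16 on the array, Cd3d, Cd2 and Ms4a1 among them, were under 6 on all arrays. Their part in the tissue difference was not tested.

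Members with and without the ISRE core in their window overlapped in their tissue difference. The 15 tested members with the core had tissue differences of 0.20 to 1.62 with a median of 0.96, and the 9 with a window but no core had 0.06 to 1.75 with a median of 1.10. The core was sought in the full windows, of which the printed excerpts are a part, and the comparison was not tested.

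Lithium was compared with control in medulla, with scan groups in the fit. Of 33 members 1 passed as higher and 0 as lower, where 0.83% of 16025 clusters passed as higher and 0.356% as lower. Without adjustment 6 were higher and 10 lower, or 18.2% and 30.3%, beside 9.09% and 10.5% of all clusters. The differences ran from -1.29 to 0.73 with a median of -0.16, beside -0.01 for all clusters. In the fit without scan groups, which counts 10 residual degrees of freedom where the values hold 8, 3 members were higher and 5 lower, against 3.33% and 3.24% of all clusters. Lithium was below control within each of the 3 medulla scan groups for 15 members and above it in each for 6. Of all 16025 clusters 26.4% were below in each group and 22.8% above.

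**Figure D2:**
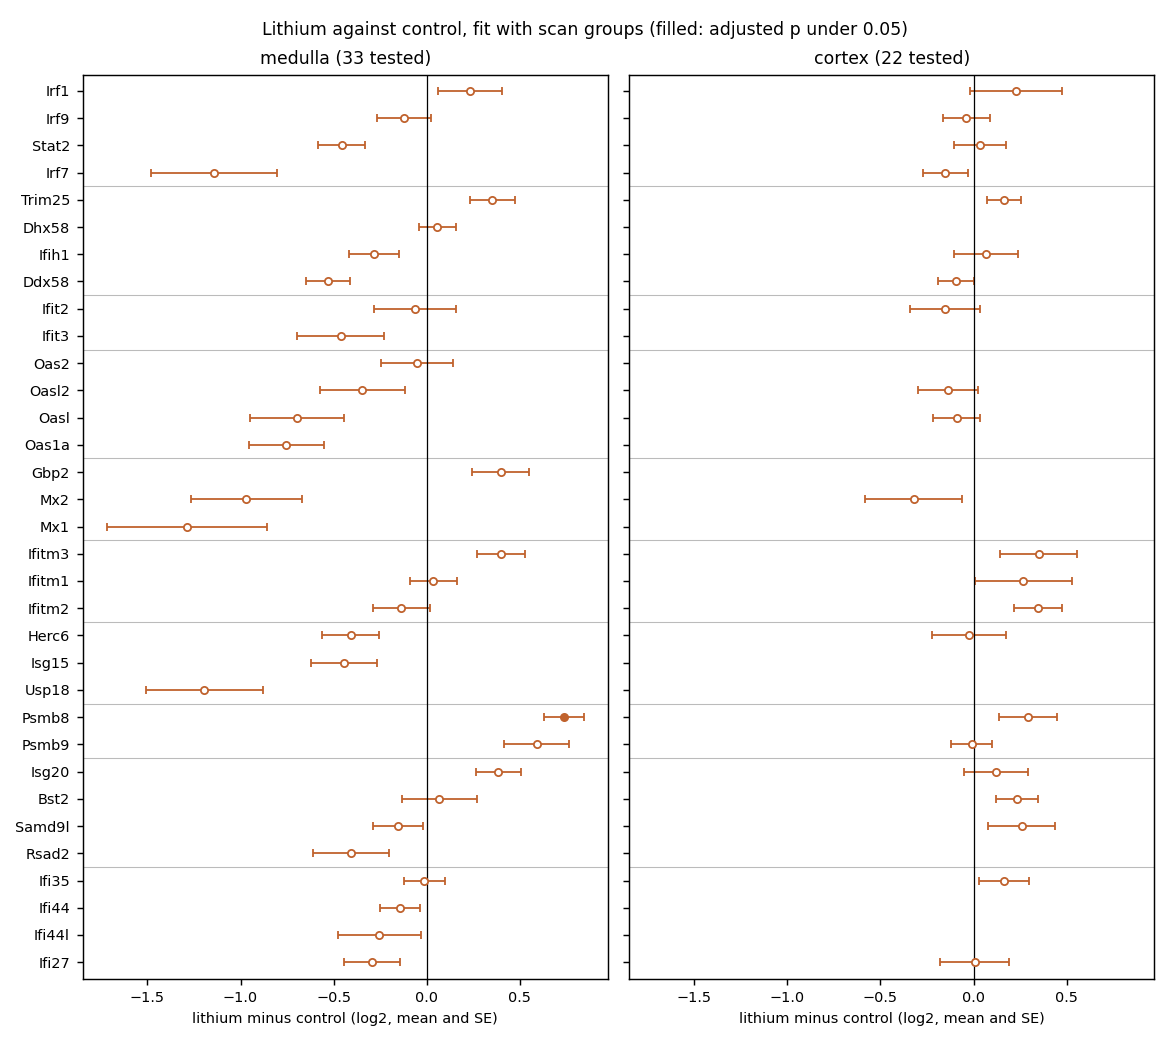
Lithium minus control on the log2 scale in medulla (33 members) and cortex (22 members), from the fits with scan groups, with the standard error as bars and members grouped by role. The filled point, Psmb8 in medulla at 0.73, passed the threshold. Mx1, Usp18 and Irf7 had the lowest values, from -1.29 to -1.14, with wide bars.

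Psmb8, the immunoproteasome subunit also called LMP7, was the member that rose. Its deposited log2 value was 6.41 to 6.68 (median 6.53) in control medulla and 7.06 to 7.46 (median 7.29) in lithium medulla. Every lithium array lay above every control array, as in 2.12% of clusters tested. The difference was 0.73 ± 0.11 (SE; adjusted p = 0.0114, limma), or 1.66-fold. Within the scan groups it was 0.70, 0.69 and 0.82, and it passed under every alternative run, with adjusted p between 0.0013 and 0.0486. Psmb9, the partner subunit LMP2, was at 7.25 to 8.15 (median 7.37) in control and 7.89 to 8.42 (median 8.11) in lithium medulla, a difference of 0.59 ± 0.17 (adjusted p = 0.111). Control animal 15 held the single control value within the lithium range, and without it Psmb9 was called, at 0.74 (adjusted p = 0.0476, limma).

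**Figure D3:**
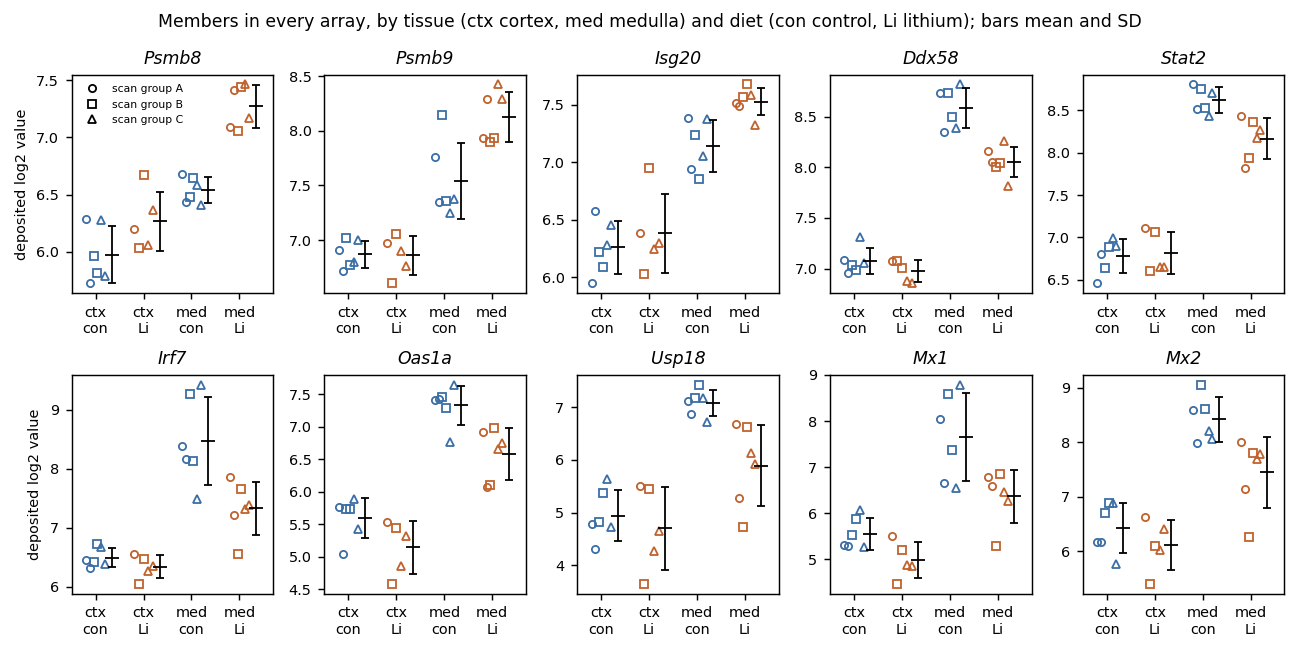
Deposited log2 values of 10 members on each array, with mean and SD as bars, for control (blue) and lithium (orange) in cortex and medulla. Shown are the 8 members called in medulla without scan groups, and Mx1 and Mx2. Marker shapes are scan groups, and in medulla the lithium arrays of Psmb8 lie above, and those of Ddx58 and Usp18 below, all control arrays.

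Lower values in lithium medulla came close to the threshold in several members but did not pass it. Ddx58 was at 8.35 to 8.82 (median 8.61) in control and at 7.82 to 8.26 (median 8.05) in lithium medulla. Every lithium array lay below every control array, as in 1.6% of clusters. The difference was -0.53 ± 0.12 (SE; adjusted p = 0.0527, limma), and it was -0.43, -0.59 and -0.57 within the scan groups. It passed with each array centred (-0.58, adjusted p = 0.0436), and over the alternatives its adjusted p ran from 0.0134 to 0.13.

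Usp18 was the other member whose groups did not overlap downward. It was at 6.72 to 7.43 (median 7.15) in control and at 4.73 to 6.68 (median 6.03) in lithium medulla, a difference of -1.19 ± 0.31 (adjusted p = 0.0862, limma). The lithium arrays spread far more, with an SD of 0.77 against 0.25 (n = 6 each), and 3 of 6 stayed at 6 or more. Without lithium animal 6 the difference was -1.39 and passed (adjusted p = 0.0279), in a fit that called 459 clusters higher and 594 lower where 133 and 57 were called with it.

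Irf7 was at 7.48 to 9.43 (median 8.27) in control and at 6.55 to 7.86 (median 7.36) in lithium medulla, a difference of -1.14 ± 0.34 (adjusted p = 0.113, limma). The groups overlapped through control animal 29, the lowest of the control arrays. Stat2 was at 8.43 to 8.81 and at 7.82 to 8.43, a difference of -0.46 ± 0.13 (adjusted p = 0.0985). Its groups met at the edge, with lithium animal 6 at 8.43. Irf9 had -0.12 ± 0.15 and Irf1 0.23 ± 0.17, so the transcription factors did not move as a block.

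Oas1a was at 6.77 to 7.65 (median 7.42) in control and at 6.08 to 6.98 (median 6.71) in lithium medulla, a difference of -0.75 ± 0.20 (adjusted p = 0.0894, limma). Control animal 29 was the control array inside the lithium range. Oasl had -0.70 ± 0.25, Oasl2 -0.35 ± 0.23 and Oas2 -0.05 ± 0.19. None of the 4 was called.

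The MX genes had large differences and large spreads. Mx1 was at 6.54 to 8.79 (median 7.70) in control and at 5.28 to 6.84 (median 6.53) in lithium medulla, a difference of -1.29 ± 0.43 (adjusted p = 0.144, limma). Within scan groups it was -0.65, -1.91 and -1.30. Mx2 had -0.97 ± 0.30 (adjusted p = 0.123), and within scan groups -0.72, -1.80 and -0.39. The GTPase gene Gbp2 had the opposite sign, 0.40 ± 0.16 (adjusted p = 0.189).

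Of the remaining members, Isg15 had -0.44 ± 0.18, Herc6 -0.41 ± 0.15, Ifit3 -0.46 ± 0.23 and Rsad2 -0.41 ± 0.20. Positive values were those of Ifitm3 at 0.40 ± 0.13, Isg20 at 0.38 ± 0.12 and Trim25 at 0.35 ± 0.12. None of these 7 passed. The other 11 tested members had differences between -0.29 and 0.07 and include Ifih1 at -0.28, Ifitm1 at 0.03 (-0.02 with each array centred), Ifitm2 at -0.14 and Samd9l at -0.16.

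In the rest of the pathway few genes passed in lithium medulla. Il15, the sole gene of the ligand list called and not itself an interferon, fell by 0.58 ± 0.10 (adjusted p = 0.0236, limma). Ikbke, a kinase that activates IRF factors, rose by 0.73 ± 0.15 (adjusted p = 0.0478). Of 16 receptors, kinases and factors, 27 other interferon-responsive genes and 19 MHC class I genes 0 passed in either direction in limma. Without adjustment 1, 5 and 8 did, both directions together, beside 3135 of all 16025 clusters (9.09% higher and 10.5% lower). The mean level of the 19 MHC class I genes was 8.33 to 8.85 in control and 8.61 to 8.95 in lithium medulla, with overlap. Of 11 tested macrophage and dendritic cell genes 3 were called higher, beside 0.83% of all clusters (Cd68 by 1.06, Mrc1 by 1.00 and C1qa by 0.95). All 11 had positive values, where the median difference of all clusters was -0.01. The mean level of the 16 on the array, of which Itgam, Clec9a and Xcr1 were under 6 on all arrays, was 5.97 to 6.79 in control medulla and 6.77 to 7.28 in lithium medulla. Of 7 T, B and NK cell genes Cd3e rose by 0.68. The leukocyte gene Ptprc was at 6.00 to 7.91 in control and 7.45 to 8.53 in lithium medulla. Of 7 endothelial genes Emcn fell by 0.91, and their mean level was 8.77 to 9.42 in control and 8.46 to 8.90 in lithium medulla. Tubule markers were at lower mean levels, with 0 of 10 called in either list: the 10 proximal tubule genes had a mean level of 7.85 to 9.01 in control and 7.21 to 8.22 in lithium medulla, and the 10 loop and collecting duct genes 9.04 to 10.62 and 8.26 to 9.87. The part of these cells in the members' differences was not tested.

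In cortex no member was called under lithium. Of 22 tested, 0 passed as higher and 0 as lower in limma, 1 had an unadjusted p under 0.05 (Ifitm2, higher; 4.91% of all clusters were higher and 2.63% lower by that measure), and the methods' analysis of variance and the methods' t-test gave 0 after adjustment too. Of all 13766 clusters 0.465% were higher and 0.109% lower, and without scan groups 1.5% and 0.588%, with 0 members again. The differences ran from -0.32 to 0.35 with a median of 0.05, beside 0.01 for all clusters. Ifitm2 was at 7.38 to 7.92 (median 7.67) in control and 7.83 to 8.36 (n = 5) in lithium cortex, a difference of 0.35 ± 0.13 (adjusted p = 0.537). Ifitm3 had 0.35 ± 0.21, Mx2 -0.32 ± 0.26 and Psmb8 0.29 ± 0.15. Psmb8 was at 5.72 to 6.29 in control and 6.04 to 6.67 in lithium cortex, with overlap. The filter kept 13 members out in cortex, where at most 3 of 12 arrays reached 6. With no filter 0 of 35 members were called in limma, and without adjustment 1 was higher and 5 lower, or 2.86% and 14.3%, beside 3.2% and 3.42% of all clusters. The 5 were Mx1 at -0.57, Oas1b and Oas1a at -0.45 each, Oas2 at -0.38 and Ifit3 at -0.25, with adjusted p of 0.471 to 0.753. For these 5 at most 1 cortex array reached 6. Of the other lists RT1-CE5, a class I gene, rose by 0.53, and the collecting duct genes Aqp2 and Scnn1g fell by 1.46 and 1.44.

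The lithium effect in medulla was then set against that in cortex in 1 fit over all 24 arrays. Of 33 members 0 differed as higher and 0 as lower, where 0.0854% and 0.0061% of 16388 clusters did. Without adjustment 2 were higher and 4 lower, beside 4.87% and 7.37% of all clusters. The largest member differences were -0.99 ± 0.40 for Irf7 (adjusted p = 0.339, limma), -0.96 ± 0.51 for Usp18 (adjusted p = 0.455), -0.72 ± 0.53 for Mx1 and -0.65 ± 0.43 for Mx2. The effect on Psmb8 was 0.44 ± 0.19 larger in medulla (adjusted p = 0.374). A difference between the tissues in the lithium effect was thus not detectable for any member at this number of arrays.

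Highest and lowest values per animal are described over members, which share arrays. They were not counted over all clusters, so a shift of a whole array cannot be told from one of the members. In lithium medulla animal 18 held the lowest value of 20 of 33 members and lay 0.43 under the group mean on average. In lithium cortex the same animal held the lowest value of 17 of 22. Animal 6 was on the other side in lithium medulla, with the highest value of 18 of 33 and a mean deviation of 0.26, and animal 19 in lithium cortex with 13 of 22. In control medulla animal 15 held the highest value of 16 members, and animals 13 and 29 the lowest of 12 and 10. Animal 29 held the highest of 10 of 22 in control cortex, so its tissues went opposite ways. For Usp18, Mx1, Mx2 and Irf7 the value of animal 18 in lithium medulla was 4.73, 5.28, 6.27 and 6.55, in each case the lowest of the group. Without this animal the medulla counts were again 1 higher and 0 lower. With the scan date removed, the deviations of the arrays of a scan group add up to 0, so animals of 1 scan group are not independent. Animals 15, 16, 18 and 19 formed scan group B in both tissues. The high values of animal 15 and the low ones of animal 18 in medulla are therefore not separate observations.

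**Figure D4:**
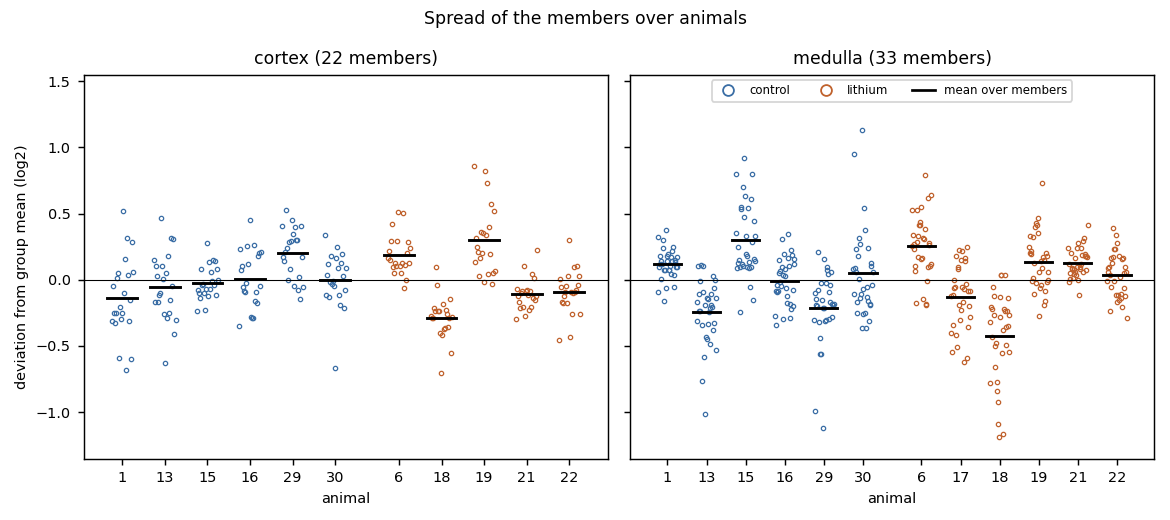
Deviation of each member from its group mean on the log2 scale, for every animal, in cortex (22 members) and medulla (33 members), with blue circles for control, orange for lithium and bars for the mean over members. Animal 18 lies lowest in both lithium groups, at -0.29 in cortex and -0.43 in medulla, and animal 15 highest in control medulla, at 0.30.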

How the data were processed

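Cortex and medulla of 12 rats were hybridised by the authors to 24 Affymetrix arrays (named both Rat Gene 1.0 ST and Rat Exon 1.0 ST in the methods, with 28894 clusters as values). The deposited log2 values were made with the RMA method in Partek, quantile normalization included, after which the authors removed the scan date by analysis of variance and averaged probe sets per cluster. Array medians differ between the tissues, and whether both were normalized together or scanned on the same dates was not settled here. Raw signals and scan dates were not used here. Removing the date lowers the residual degrees of freedom from 10 to 7 in cortex and to 8 in medulla; scan groups were recovered from directions without residual variance and entered the lithium fits. Single symbols named 15097 clusters, several symbols 323 and none 13474.

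limma 3.58.1 (R 4.3.3; Python 3.11.15 for tables) was fitted over all clusters with a log2 value of 6 or more on at least 4 arrays, with 2-sided tests and Benjamini-Hochberg adjustment. The fits were lithium against control per tissue, control medulla against control cortex after centring each array on its median, and the interaction. The precision is limited by the number of arrays, and p-values of the lithium fits per tissue measure the spread between animals within scan groups. The main tissue fit had no scan groups, although the date had been removed from its values, and took both arrays of an animal as separate. Its p-values thus rest on a spread that the removal had narrowed. Alternatives were other filters, scalings, fits, the methods' tests and each replicate left out. The arrays of the tissues are paired by the animal numbers of the labels. Deviations from the group mean correlated between an animal's arrays at -0.058 to 0.419 over clusters, and above 0.1 in 6 of 11 animals.

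The members and lists were chosen with earlier results of these data known, by textbook role. Values were given for the 20 members past the threshold that changed most and the 4 with the largest change in each comparison, and for the other members where their role is described. From each other list up to 4 genes past the threshold were eligible. The scripts were tested on simulated data.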

Additional observations from a re-analysis of the deposited data

Results flagged for a closer look

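In 110 groups of member values, 8 held an array set apart from the rest by Dixon's criterion, where chance flags about 1 in 20 groups of independent values. Members share arrays and the values of a scan group are linked, so the count cannot be judged by that rate. Lithium animal 18 was the lowest of its medulla group for Oas2 at 5.36 (next 6.19), for Oasl at 6.04 (next 6.79) and for Mx1 at 5.28 (next 6.26). Control animal 15 was the highest in medulla for Oasl2 at 8.46 (next 8.03) and for Bst2 at 8.14 (next 7.38). Control animal 13 was the lowest in medulla for Herc6 at 7.28 (next 7.70). Lithium animal 6 was the highest in medulla for Ifitm2 at 9.40 (next 9.12), and control animal 29 the highest in cortex for Ddx58 at 7.31 (next 7.08). The cause was not tested.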

How the results depend on the processing

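For control medulla against control cortex, 29 members were called higher; 30 were with the animal as a replicate block (paired by animal), 33 without centring, 29 after quantile normalization over all arrays, and 29 to 30 without each replicate in turn. No member was lower except 1, Ifit1, with no filter on low values and arrays centred. Over all clusters the split of higher and lower calls was 6434 and 3405, without centring 10732 and 1500, and after quantile normalization 5129 and 4336. For lithium in medulla, 1 member was higher and 0 lower; leaving out scan groups gave 3 and 5, and centring each array gave 1 lower (Ddx58), with 101 and 96 clusters called where 133 and 57 were. The methods' analysis of variance and the methods' t-test, each at their p and fold threshold, gave 2 higher and 6 lower, and the t-test after Benjamini-Hochberg adjustment 1 lower. Without each replicate in turn the counts were 1 to 2 higher and 0 to 4 lower: 4 lower without lithium animal 6, where 594 of all clusters were lower; 3 without control animal 29, where 102 were; and 2 higher without control animal 15, where 46 clusters were higher. The causes were not tested, except that a fit without scan groups counts more residual degrees of freedom by construction. In cortex and for the tissue difference of the lithium effect, 0 members were called under every alternative (the replicate block was run for the latter only). No called member changed sign, while members near 0 did: 1 in the tissue comparison (Trim25, to -0.10 after quantile normalization), 6 for lithium in medulla, 8 in cortex and 5 for the tissue difference, none called before or after. All members had 1 cluster, so the mean over several clusters was not run. With 5 or 6 arrays a group, the members' standard errors of up to 0.43 in medulla limit what could be called.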
